A study of Mus musculus with 9 samples.

Results

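Interferon-stimulated genes are the genes that cells switch on when interferons reach their receptors. The 57 genes described here are a list of mouse genes induced by type I or type II interferon, out of 55536 genes in the count table. They were matched by symbol, and all 57 were found. RNA sequencing measured them in 9 libraries of mouse bone marrow-derived macrophages (BMDM), which are macrophages grown from bone marrow cells with the growth factor M-CSF. A list of 107 further interferon-induced genes, the interferons themselves, their receptors and the sensors upstream were examined beside them.

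Type I interferons bind the receptor IFNAR and type II interferon binds IFNGR, and both activate Janus kinases that phosphorylate STAT proteins. STAT2 and IRF9 belong to a complex that binds the interferon-stimulated response element (ISRE), whereas the response to type II interferon runs mainly through the gamma-activated site (GAS). Macrophages keep a low tonic interferon signal in the absence of infection, which can sustain basal transcription of interferon-stimulated genes. Its part in the levels below was not tested.

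The recipient macrophages of all 3 groups were wild type, from male mice 6 to 12 weeks old, and had been given M-CSF at 25 ng/mL over 6 days. The EKO-BMDM-exo group (3 libraries) was then exposed for 18 hours to 2e+09 particles/mL of exosomes, small vesicles released by cells, whose donors were ApoE-deficient. The WT-BMDM-exo group (3 libraries) received the same dose of exosomes from wild-type donors for the same time, and the PBS group (3 libraries) received buffer. The design text calls the libraries biological replicates, but no source used here says whether they came from separate mice or separate exosome preparations, so a p-value refers to variation among these libraries, which may be technical. The strain is not given in the labels used here.

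Each library held 28581306 to 35929596 counts and 13815 genes passed the filter on low counts. Apoe itself stood at 18725 to 19394 CPM (counts scaled to library size with TMM factors) in EKO-BMDM-exo, 19452 to 20164 CPM in WT-BMDM-exo and 18933 to 20081 CPM in PBS, so the wild-type recipients expressed it in every group. In a principal component analysis, WT-BMDM-exo 3 had a score of 57.5 on the first component (15.2% of variance), where the other libraries scored -16.8 to 3.43. The second component (15.1% of variance) set EKO-BMDM-exo 2, at 38, and WT-BMDM-exo 2, at -45.4, apart from the other libraries, which scored -7.07 to 17.8. The summed level of 8 macrophage markers (Adgre1, Csf1r, Cd68, Itgam, Mertk, Fcgr1, Lyz2 and C1qa) was 20680 to 21642 CPM in EKO-BMDM-exo, 20942 to 21580 CPM in WT-BMDM-exo and 22625 to 23844 CPM in PBS. Markers of T and NK cells summed to at most 0.359 CPM in any library, and those of conventional dendritic cells to at most 1.22 CPM. Markers of B cells reached at most 2.16 CPM. Other lists were higher, at most 19.4 CPM for endothelial, 30.7 CPM for neutrophil and 62.5 CPM for fibroblast and stromal markers. Those of plasmacytoid dendritic cells reached 279 CPM, nearly all of it Tcf4 and Bst2. The cells thus carried the markers of the labelled type, beside lower levels of some others.

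Of the 57 genes, 56 passed the filter. The exception was Iigp1, an immunity-related GTPase on chromosome 18, with 2, 2 and 4 counts in EKO-BMDM-exo, 0, 0 and 1 in WT-BMDM-exo and 0, 4 and 4 in PBS. In macrophages given ApoE-deficient exosomes, 28 of the 56 genes (50.0%) fell against PBS and none rose (edgeR, adjusted p under 0.05). Of all genes tested, 2.41% were lower and 1.82% higher in that comparison. The log2 fold changes of the 28 lay between -1.06 and -0.171, with a median of -0.38. Across all 56 genes the median was -0.28, and 54 had a negative value, against a median of -5.2e-04 over all genes tested. DESeq2 and limma-voom called 28 and 27 of them lower and 0 higher, and 0 were higher at an unadjusted p under 0.05 by any of these tools. In bulk RNA, fewer cells that express a gene and less RNA per cell cannot be told apart.

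With wild-type exosomes, 3 of the 56 genes fell against PBS (Samhd1, Ly6e and Rtp4), beside 2.18% of all genes tested. None rose, beside 1.93% (edgeR; 0 also by DESeq2 and limma-voom, with 2, 1 and 2 at an unadjusted p under 0.05). The median log2 fold change was -0.092, with 43 genes negative. The exosome comparisons share the PBS libraries, and the direct comparison of the exosomes gives their difference. In it, 10 genes were lower in EKO-BMDM-exo than in WT-BMDM-exo (Lgals3bp, Siglec1, Stat2, Ly6e, Ifi27l2a, Ifit2, Parp14, Bst2, Irf7 and Oas1a), beside 0.413% of all genes tested. None was higher, beside 0.282% of all genes (edgeR; 0 by DESeq2 and limma-voom, and 0 at an unadjusted p under 0.05 by each). The median was -0.23 and 51 genes were negative. DESeq2 called 12 lower and limma-voom 8.

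**Figure D1:**
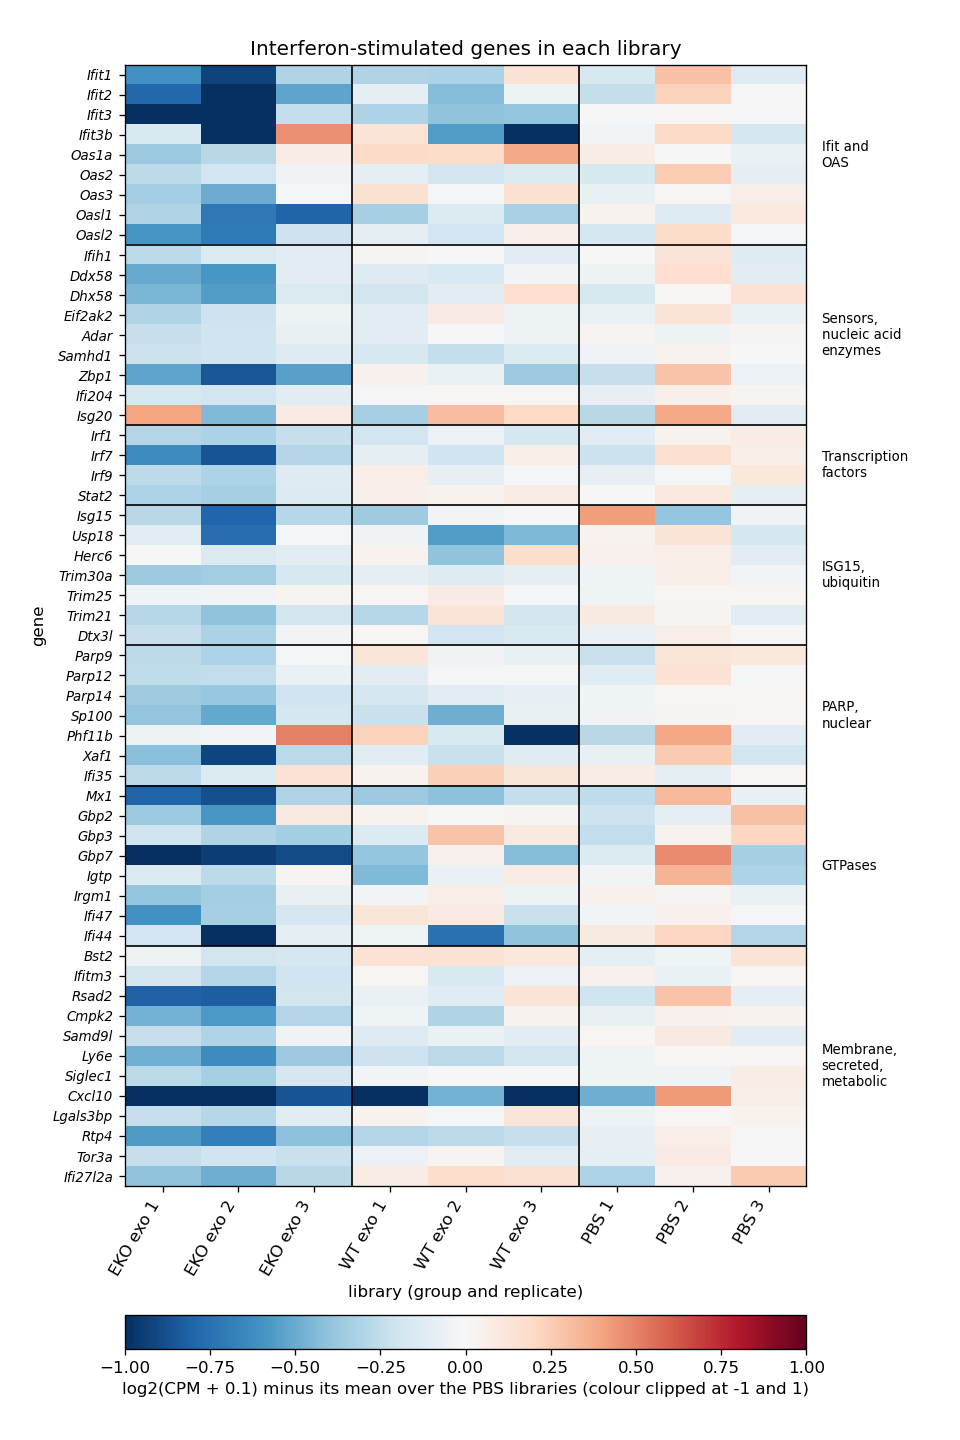
Level of the 56 tested interferon-stimulated genes in each of the 9 libraries (columns) as log2(CPM + 0.1) minus its mean over the PBS libraries, grouped by role from top to bottom. Blue is below PBS and red above, with the colour limited at -1 and 1; the EKO-BMDM-exo columns are blue over most rows, palest in EKO-BMDM-exo 3.

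The promoters of a few of the genes that fell are shown as examples of those that hold a match to an interferon-response motif. RefSeq promoter sequences of GRCm38.p6 were available for 43 of the 57 genes, and the 250 bases before the annotated start were searched on both strands. The letters TTTCNNTTTC, the core of the ISRE, occurred in 17 of these 43 promoters (39.5%), against 936 of 27025 genes in the table (3.46%). Of the genes lower in EKO-BMDM-exo than in PBS, 7 of 19 held it (Gbp7, Ifit1, Ifit3, Irgm1, Rsad2, Stat2 and Trim30a), and of the others 10 of 24. The letters TTCNNNGAA, a GAS-like motif, occurred in 9 of 43 promoters (20.9%) against 8.13% of all genes, in 4 of 19 that were lower (Gbp7, Ifit2, Irf1 and Samhd1) and 5 of 24 others. Of these promoters 4 held both motifs (Bst2, Gbp7, Igtp and Oas1a), in 1 of which matches of the motifs overlapped. A match is a description of the sequence, not a measured binding site. The first 5 sequences below come 1 from each of 5 role groups and carry ISRE-like matches in capitals. The sixth, of Irf1, carries a GAS-like match in capitals. All are written 5′ to 3′ on the strand of the gene.
Trim30a (chr7:104465194-104465443, minus strand): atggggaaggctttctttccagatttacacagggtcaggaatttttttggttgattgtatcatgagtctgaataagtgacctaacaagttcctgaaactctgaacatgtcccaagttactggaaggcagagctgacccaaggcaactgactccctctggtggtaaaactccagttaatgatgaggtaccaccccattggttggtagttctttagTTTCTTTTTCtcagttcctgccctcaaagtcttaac
Stat2 (chr10:128270248-128270497, plus strand): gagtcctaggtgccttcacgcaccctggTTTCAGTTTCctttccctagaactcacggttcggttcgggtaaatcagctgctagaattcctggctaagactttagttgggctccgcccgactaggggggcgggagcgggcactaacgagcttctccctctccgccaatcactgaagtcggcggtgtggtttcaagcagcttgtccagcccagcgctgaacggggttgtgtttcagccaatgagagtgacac
Ifit3 (chr19:34583279-34583528, plus strand): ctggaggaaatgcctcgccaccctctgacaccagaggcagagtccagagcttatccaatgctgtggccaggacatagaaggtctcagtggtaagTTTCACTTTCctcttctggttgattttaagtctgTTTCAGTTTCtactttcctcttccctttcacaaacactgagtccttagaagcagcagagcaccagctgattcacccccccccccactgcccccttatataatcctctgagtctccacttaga
Rsad2 (chr12:26456453-26456702, minus strand): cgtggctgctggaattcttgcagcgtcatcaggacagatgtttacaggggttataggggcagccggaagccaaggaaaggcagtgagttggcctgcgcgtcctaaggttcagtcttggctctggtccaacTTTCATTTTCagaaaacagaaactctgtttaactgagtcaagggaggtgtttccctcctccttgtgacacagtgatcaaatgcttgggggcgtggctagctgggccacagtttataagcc
Gbp7 (chr3:142530086-142530335, plus strand): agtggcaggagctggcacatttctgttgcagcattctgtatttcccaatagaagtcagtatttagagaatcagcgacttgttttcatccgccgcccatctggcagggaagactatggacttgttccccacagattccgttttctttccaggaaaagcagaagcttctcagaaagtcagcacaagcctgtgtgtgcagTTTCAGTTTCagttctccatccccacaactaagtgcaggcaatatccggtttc
Irf1 (chr11:53769764-53770013, plus strand): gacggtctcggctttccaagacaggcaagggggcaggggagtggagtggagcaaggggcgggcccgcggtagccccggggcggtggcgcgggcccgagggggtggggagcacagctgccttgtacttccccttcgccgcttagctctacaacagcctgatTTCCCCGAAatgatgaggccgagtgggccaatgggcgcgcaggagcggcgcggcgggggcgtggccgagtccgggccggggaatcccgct
The match lay 26 bases before the start in Trim30a, 212 in Stat2, 110 in Rsad2 and 43 in Gbp7. Ifit3 held 2 matches, the nearer of them 112 bases before the start, and the Irf1 match lay 81 bases before it.

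The transcription factors that carry the interferon signal were lower in EKO-BMDM-exo as a group. All 4 on the list, Irf7, Stat2, Irf1 and Irf9, fell against PBS, and Stat2 and Irf7 also fell against WT-BMDM-exo. The shares of all genes tested that were lower in these comparisons were 2.41% and 0.413%. Irf7, the factor that amplifies type I interferon production, measured 35.3, 30.1 and 44.7 CPM in EKO-BMDM-exo, 51.2, 47.7 and 57.1 CPM in WT-BMDM-exo and 47.2, 61.1 and 56.9 CPM in PBS. Every EKO-BMDM-exo library lay below every other library. Its log2 fold change was -0.58 ± 0.11 (SE) against PBS (edgeR, adjusted p = 0.00214) and -0.50 ± 0.11 against WT-BMDM-exo (adjusted p = 0.0393). The second of these calls was lost with limma-voom and when any library but EKO-BMDM-exo 3, PBS 1 or PBS 2 was left out, with an adjusted p of up to 0.344 without EKO-BMDM-exo 1.

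Stat2, a subunit of the complex that binds the ISRE, measured 92.2, 90.7 and 104 CPM in EKO-BMDM-exo, 118, 117 and 120 CPM in WT-BMDM-exo and 114, 122 and 107 CPM in PBS. The EKO-BMDM-exo values lay below both other groups, which overlapped each other. The log2 fold change was -0.26 ± 0.057 against PBS (adjusted p = 0.00265, and 0.0513 without PBS 2) and -0.31 ± 0.057 against WT-BMDM-exo (adjusted p = 0.00158). Irf9, the DNA-binding subunit of that complex, had 66.9, 64.7 and 73.2 CPM in EKO-BMDM-exo, 83.8, 75.7 and 79.3 CPM in WT-BMDM-exo and 75.7, 79.1 and 86.1 CPM in PBS. Again EKO-BMDM-exo stood below both groups without overlap, with a log2 fold change of -0.23 ± 0.065 against PBS (adjusted p = 0.0289) and -0.22 ± 0.066 against WT-BMDM-exo (adjusted p = 0.143). Irf1, a factor induced mainly by type II interferon, had 54.3, 53.2 and 56.6 CPM in EKO-BMDM-exo, 58.0, 63.8 and 58.6 CPM in WT-BMDM-exo and 61.8, 67.9 and 69.7 CPM in PBS. The groups were ordered EKO-BMDM-exo, WT-BMDM-exo and PBS from low to high, with overlap between WT-BMDM-exo and PBS, and the change against PBS was -0.28 ± 0.069 (adjusted p = 0.00996). Irf9 lost its call against PBS without EKO-BMDM-exo 1 or 2 or PBS 2 or 3 (adjusted p up to 0.211, without EKO-BMDM-exo 2), and Irf1 without EKO-BMDM-exo 2 or PBS 2 or 3 (up to 0.0727, without EKO-BMDM-exo 2).

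The IFIT proteins bind viral RNA and block its translation, and the OAS enzymes make the second messenger that activates RNase L. Of the 9 genes of these families, Ifit2, Ifit3 and Ifit1 fell in EKO-BMDM-exo against PBS, beside 2.41% of all genes tested. All 9 had negative values. Ifit2 measured 21.9, 18.8 and 26.3 CPM in EKO-BMDM-exo, 35.4, 28.0 and 36.6 CPM in WT-BMDM-exo and 32.1, 44.5 and 38.1 CPM in PBS. All EKO-BMDM-exo libraries were below all others. Its log2 fold change was -0.78 ± 0.12 against PBS (adjusted p = 1.67e-05) and -0.58 ± 0.12 against WT-BMDM-exo (adjusted p = 0.00587). The call between the exosomes was lost without EKO-BMDM-exo 1 or 2 or WT-BMDM-exo 1 or 3, with an adjusted p of up to 0.145 without EKO-BMDM-exo 2.

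Ifit3, which stabilises the IFIT complex, had 5.32, 4.65 and 10.6 CPM in EKO-BMDM-exo, 10.1, 9.43 and 9.47 CPM in WT-BMDM-exo and 12.5, 12.6 and 12.4 CPM in PBS. EKO-BMDM-exo 3 held about the WT-BMDM-exo level, whereas its companions held less. The log2 fold change against PBS was -0.86 ± 0.20 (adjusted p = 0.00537), and the call was lost without EKO-BMDM-exo 1 or 2 (up to 0.0988, without EKO-BMDM-exo 2). Ifit1, which binds RNA that lacks the host cap methylation, had 8.79, 7.02 and 10.9 CPM in EKO-BMDM-exo, 10.9, 10.8 and 14.9 CPM in WT-BMDM-exo and 12.0, 16.5 and 12.3 CPM in PBS. EKO-BMDM-exo lay below PBS and touched WT-BMDM-exo at 10.9 CPM, and the change against PBS was -0.61 ± 0.17 (adjusted p = 0.0297). It was lost without EKO-BMDM-exo 1 or 2 or PBS 2, with an adjusted p of up to 0.285 without PBS 2. Ifit3b, a near copy of Ifit3, had only 4 to 65 counts a library, and reads of the pair may have been shared or dropped in counting, so both values are uncertain. The 4 Ifit genes lie together on chromosome 19 between 34550694 and 34650009 (GRCm38).

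Among the OAS genes, Oas1a was the one that passed in any comparison. It measured 20.1, 21.5 and 27.5 CPM in EKO-BMDM-exo, 29.8, 29.7 and 33.9 CPM in WT-BMDM-exo and 27.4, 26.0 and 24.9 CPM in PBS. WT-BMDM-exo lay above both other groups, which overlapped, and the change between exosomes was -0.43 ± 0.11 (adjusted p = 0.0463). That call was lost without any 1 of 6 libraries, EKO-BMDM-exo 1 or 2, WT-BMDM-exo 1, 2 or 3 or PBS 2, with an adjusted p of up to 0.422 without EKO-BMDM-exo 1. Oas3, the highest of the families by CPM, had 165, 148 and 206 CPM in EKO-BMDM-exo, 232, 207 and 233 CPM in WT-BMDM-exo and 199, 211 and 218 CPM in PBS. EKO-BMDM-exo 3 reached into the PBS range, and the change against PBS was -0.28 ± 0.12 (adjusted p = 0.431). Oasl2, an OAS-like protein, had 102, 94.0 and 133 CPM in EKO-BMDM-exo, 144, 134 and 159 CPM in WT-BMDM-exo and 136, 174 and 152 CPM in PBS. Its EKO-BMDM-exo libraries lay below both groups, yet its change against PBS of -0.49 ± 0.16 did not pass (adjusted p = 0.231). Oasl1, at 2.46 to 3.53 CPM in EKO-BMDM-exo, 3.44 to 3.96 CPM in WT-BMDM-exo and 3.98 to 4.67 CPM in PBS, had a value of -0.60 ± 0.27 (adjusted p = 0.290), and Oas2 one of -0.17 ± 0.078 (adjusted p = 0.331). The OAS genes are neighbours on chromosome 5 and resemble each other, so reads shared between them add uncertainty to each value.

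Sensors of foreign nucleic acid and enzymes that act on it formed a group of 9. Samhd1, Zbp1, Ddx58, Dhx58 and Adar (5 genes) fell in EKO-BMDM-exo against PBS, beside 2.41% of all genes tested. Between the exosomes none of the 9 passed (0 by edgeR, DESeq2 and limma-voom, with 6, 4 and 6 lower at an unadjusted p under 0.05). Samhd1, which degrades dNTPs and limits reverse transcription, measured 324, 328 and 344 CPM in EKO-BMDM-exo, 337, 319 and 342 CPM in WT-BMDM-exo and 367, 385 and 376 CPM in PBS. Both exosome groups lay below PBS without overlap and overlapped each other. The log2 fold change was -0.18 ± 0.037 for EKO-BMDM-exo against PBS (adjusted p = 0.00135) and -0.18 ± 0.037 for WT-BMDM-exo against PBS (adjusted p = 0.00164). Between the exosomes it was -0.00 with a 95% interval from -0.08 to 0.07.

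Zbp1, a sensor of Z-form nucleic acid that triggers cell death, measured 8.93, 7.09 and 8.83 CPM in EKO-BMDM-exo, 13.3, 12.3 and 9.99 CPM in WT-BMDM-exo and 11.0, 15.7 and 12.4 CPM in PBS. EKO-BMDM-exo lay below both groups, with a change of -0.65 ± 0.16 against PBS (adjusted p = 0.0119). It was lost without EKO-BMDM-exo 2 or PBS 2 (up to 0.166, without PBS 2). Ddx58 encodes RIG-I, the sensor of RNA with a free 5′ triphosphate, and Dhx58 encodes its relative LGP2. Ddx58 had 55.1, 52.2 and 72.7 CPM in EKO-BMDM-exo, 71.6, 70.3 and 76.6 CPM in WT-BMDM-exo and 75.4, 87.9 and 72.3 CPM in PBS. Dhx58 had 31.9, 29.7 and 39.6 CPM in EKO-BMDM-exo, 38.5, 40.4 and 49.3 CPM in WT-BMDM-exo and 39.1, 44.3 and 48.4 CPM in PBS. In both genes EKO-BMDM-exo 3 reached into the PBS range and its companions did not. Their changes against PBS were -0.39 ± 0.095 (adjusted p = 0.0163) for Ddx58 and -0.38 ± 0.10 (adjusted p = 0.0200) for Dhx58. The Ddx58 call was the least stable of the 28, lost in 9 of 15 alternatives, DESeq2 and the 6 libraries alone (adjusted p = 0.147) among them, and without any library but EKO-BMDM-exo 3 and PBS 3. Dhx58 lost its call without EKO-BMDM-exo 1 or 2 or PBS 2 or 3, with an adjusted p of up to 0.226 without EKO-BMDM-exo 2.

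Adar, which edits adenosine to inosine in double-stranded RNA, measured 127, 130 and 142 CPM in EKO-BMDM-exo, 139, 149 and 144 CPM in WT-BMDM-exo and 152, 144 and 152 CPM in PBS. EKO-BMDM-exo lay just below PBS, and the change was -0.17 ± 0.049 (adjusted p = 0.0354). It was lost without EKO-BMDM-exo 1 or 2 or PBS 1 or 3 (up to 0.247, without EKO-BMDM-exo 1), and 16.8% of its exonic bases are shared with another annotated gene. The 4 members of the group that did not pass were Ifih1, which encodes the RNA sensor MDA5, the RNA-activated kinase gene Eif2ak2, Ifi204, and the exonuclease gene Isg20. The values of Ifih1, Eif2ak2 and Ifi204 against PBS lay between -0.18 and -0.16, and that of Isg20, at 1.89 to 3.44 CPM in any library, was 0.03 ± 0.33.

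Among the membrane, secreted and metabolic effectors, 10 of 12 fell in EKO-BMDM-exo against PBS, beside 2.41% of all genes tested. Ly6e, a lipid-anchored surface protein that blocks fusion of coronaviruses, had the lowest adjusted p of the 56 genes in that comparison and is at chr15:74955051-74959905. It measured 496, 447 and 540 CPM in EKO-BMDM-exo, 601, 576 and 611 CPM in WT-BMDM-exo and 674, 704 and 701 CPM in PBS. No groups overlapped, with EKO-BMDM-exo lowest and PBS highest. The log2 fold change was -0.49 ± 0.045 for EKO-BMDM-exo against PBS (adjusted p = 8.95e-08), -0.22 ± 0.045 for WT-BMDM-exo against PBS (adjusted p = 0.00367) and -0.27 ± 0.045 for EKO-BMDM-exo against WT-BMDM-exo (adjusted p = 0.00172). The call of WT-BMDM-exo was lost without PBS 2 or PBS 3 (up to 0.0881, without PBS 3), and the call between exosomes with limma-voom or with the 6 libraries alone (adjusted p = 0.0755). Rtp4, a chaperone-like protein of membrane receptors, had 42.0, 38.8 and 46.7 CPM in EKO-BMDM-exo, 50.8, 51.7 and 52.9 CPM in WT-BMDM-exo and 58.9, 65.2 and 62.7 CPM in PBS. Its groups stood in the same order without overlap, at -0.55 ± 0.076 for EKO-BMDM-exo against PBS (adjusted p = 3.55e-06), -0.27 ± 0.076 for WT-BMDM-exo against PBS (adjusted p = 0.0341) and -0.28 ± 0.077 between the exosomes (adjusted p = 0.0801). The WT-BMDM-exo call was lost without any 1 library of WT-BMDM-exo and without PBS 2 or 3, with an adjusted p of up to 0.173 without PBS 2. In Rtp4, 13.9% of the exonic bases are shared with another annotated gene.

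Siglec1, the sialic acid receptor that marks macrophages exposed to interferon, measured 267, 255 and 286 CPM in EKO-BMDM-exo, 316, 323 and 321 CPM in WT-BMDM-exo and 312, 314 and 339 CPM in PBS. EKO-BMDM-exo lay below both other groups, which overlapped. Its change was -0.26 ± 0.041 against PBS (adjusted p = 3.45e-05) and -0.25 ± 0.041 against WT-BMDM-exo (adjusted p = 3.24e-04), whereas WT-BMDM-exo differed from PBS by -0.01, with a 95% interval from -0.09 to 0.08. Lgals3bp, a secreted glycoprotein that binds galectins, had 615, 595 and 673 CPM in EKO-BMDM-exo, 741, 713 and 787 CPM in WT-BMDM-exo and 700, 731 and 739 CPM in PBS. It showed the same arrangement, with -0.20 ± 0.038 against PBS (adjusted p = 4.12e-04) and -0.25 ± 0.038 against WT-BMDM-exo (adjusted p = 1.02e-04). Ifitm3, which blocks entry of enveloped viruses in endosomes, had 178, 165 and 176 CPM in EKO-BMDM-exo, 203, 182 and 194 CPM in WT-BMDM-exo and 208, 193 and 205 CPM in PBS. EKO-BMDM-exo was lowest without overlap, at -0.22 ± 0.046 against PBS (adjusted p = 0.00145) and -0.16 ± 0.046 against WT-BMDM-exo (adjusted p = 0.139).

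Rsad2 and Cmpk2 are neighbours on chromosome 12, where Rsad2 spans 26442746 to 26456452 and Cmpk2 spans 26469204 to 26479837. Rsad2 encodes viperin, which makes a chain-terminating nucleotide, and Cmpk2 encodes a mitochondrial nucleotide kinase. Rsad2 had 14.9, 14.7 and 23.0 CPM in EKO-BMDM-exo, 24.9, 24.0 and 28.6 CPM in WT-BMDM-exo and 22.7, 31.9 and 24.6 CPM in PBS. EKO-BMDM-exo 3 lay inside the PBS range and the others below it, with a change of -0.59 ± 0.14 against PBS (adjusted p = 0.00908, and up to 0.131, lost without EKO-BMDM-exo 1 or 2 or PBS 2) and -0.56 ± 0.14 between the exosomes (adjusted p = 0.0589). Cmpk2 had 14.5, 13.5 and 16.4 CPM in EKO-BMDM-exo, 19.6, 16.3 and 20.6 CPM in WT-BMDM-exo and 19.1, 20.8 and 20.6 CPM in PBS. It lay below PBS without overlap, at -0.45 ± 0.12 (adjusted p = 0.0276, and up to 0.177, lost without EKO-BMDM-exo 1 or 2 or PBS 2 or 3).

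Ifi27l2a, a mitochondrial and nuclear membrane protein gene, fell in EKO-BMDM-exo against both WT-BMDM-exo and PBS. It measured 29.7, 28.0 and 32.3 CPM in EKO-BMDM-exo, 41.4, 44.4 and 43.7 CPM in WT-BMDM-exo and 31.7, 40.5 and 47.0 CPM in PBS. PBS 1 lay at the EKO-BMDM-exo level and the other PBS libraries near WT-BMDM-exo. The change was -0.52 ± 0.10 between the exosomes (adjusted p = 0.00318, and 0.0570 without EKO-BMDM-exo 2) and -0.41 ± 0.10 against PBS (adjusted p = 0.0112, and up to 0.206, lost without EKO-BMDM-exo 1 or 2 or PBS 2 or 3). Bst2, the tetherin that holds budding virions on the cell, had 87.4, 79.7 and 80.4 CPM in EKO-BMDM-exo, 99.1 ± 1.48 CPM (SD, n = 3, lowest 97.4) in WT-BMDM-exo and 84.8, 88.0 and 99.5 CPM in PBS. WT-BMDM-exo lay above EKO-BMDM-exo without overlap, and PBS overlapped both, with -0.26 ± 0.061 between the exosomes (adjusted p = 0.0206) and -0.14 ± 0.061 against PBS (adjusted p = 0.283). The call between exosomes was lost without EKO-BMDM-exo 2 or 3 or any 1 library of WT-BMDM-exo, with an adjusted p of up to 0.178 without EKO-BMDM-exo 2. Tor3a, an ATPase of the endoplasmic reticulum, and Samd9l, which restrains translation, also fell against PBS, with changes of -0.22 ± 0.061 (adjusted p = 0.0257) and -0.19 ± 0.056 (adjusted p = 0.0398). Tor3a lost its call without any 1 library of EKO-BMDM-exo and without PBS 2 or 3 (up to 0.206, without PBS 2), and Samd9l without EKO-BMDM-exo 1 or 2, WT-BMDM-exo 2 or 3 or PBS 1 or 2 (up to 0.400, without EKO-BMDM-exo 2). Cxcl10, the chemokine that draws T cells, had 10 to 19 counts in EKO-BMDM-exo, 2 to 23 in WT-BMDM-exo and 22 to 49 in PBS, and its value of -1.37 ± 0.84 against PBS did not pass (adjusted p = 0.544).

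**Figure D2:**
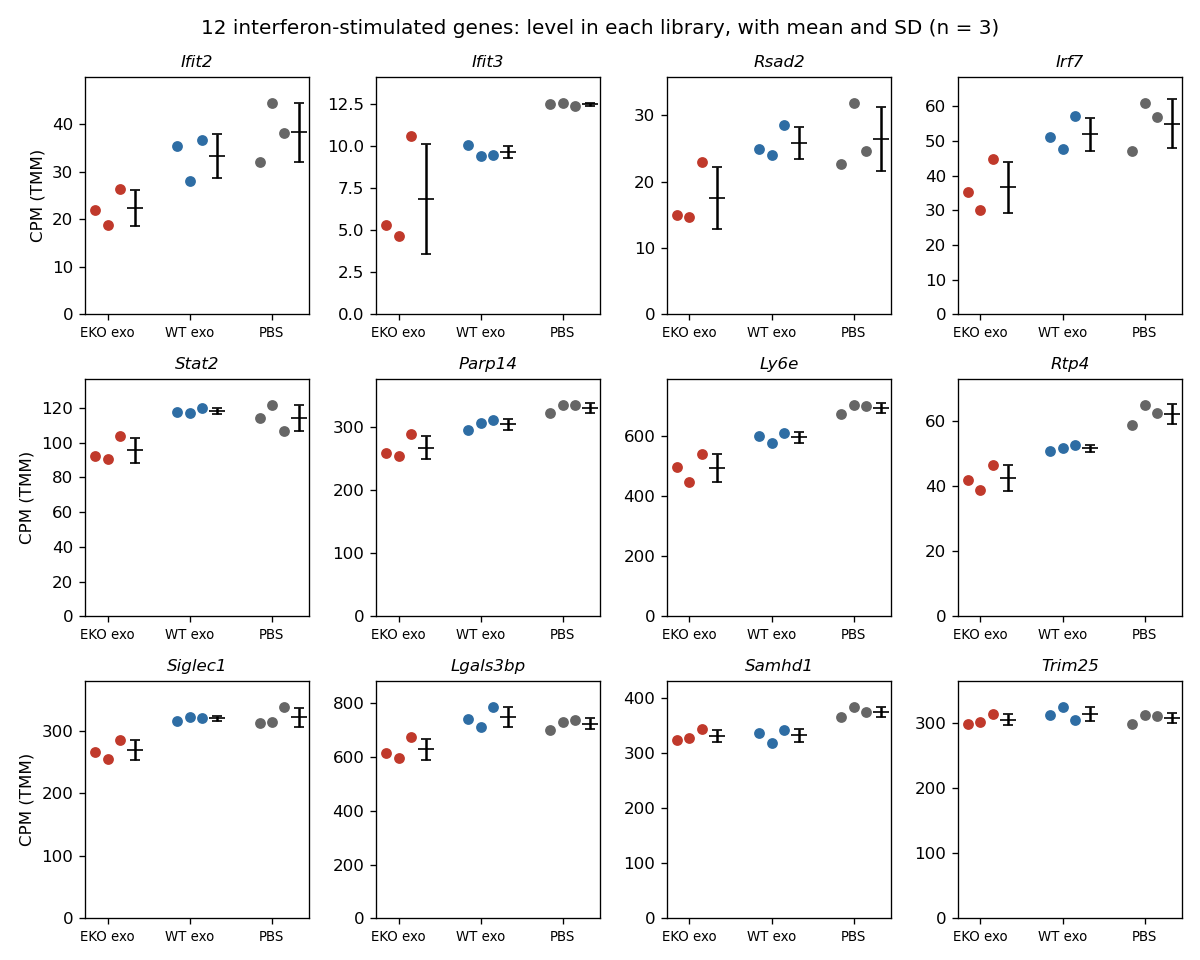
Level in CPM (TMM-scaled) of 12 interferon-stimulated genes in each library, with 1 point a library and the mean ± SD of 3 libraries beside each group. Ly6e and Rtp4 stood in the order EKO-BMDM-exo, WT-BMDM-exo, PBS without overlap, Samhd1 overlapped between the exosome groups below PBS, and Trim25 stood at 299 to 325 CPM throughout.

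Of 7 PARP and other nuclear proteins, Parp14 and Xaf1 (2 genes) fell in EKO-BMDM-exo against PBS, beside 2.41% of all genes tested. Parp14, which adds ADP-ribose to proteins and modulates macrophage activation, measured 259, 255 and 289 CPM in EKO-BMDM-exo, 295, 307 and 312 CPM in WT-BMDM-exo and 322, 335 and 336 CPM in PBS. The groups did not overlap, EKO-BMDM-exo being lowest and PBS highest. Its change was -0.31 ± 0.041 for EKO-BMDM-exo against PBS (adjusted p = 1.82e-06), -0.12 ± 0.041 for WT-BMDM-exo against PBS (adjusted p = 0.0980) and -0.19 ± 0.041 between the exosomes (adjusted p = 0.0127). The last of these was lost without EKO-BMDM-exo 1 or 2 or WT-BMDM-exo 2 or 3, with an adjusted p of up to 0.225 without EKO-BMDM-exo 2. Xaf1, an antagonist of the apoptosis inhibitor XIAP, had 17.9, 12.6 and 19.8 CPM in EKO-BMDM-exo, 22.1, 20.5 and 21.9 CPM in WT-BMDM-exo and 22.7, 28.6 and 21.0 CPM in PBS. EKO-BMDM-exo lay below both groups, at -0.52 ± 0.13 against PBS (adjusted p = 0.0138, and up to 0.220, lost without EKO-BMDM-exo 2 or PBS 2).

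Parp9 and Dtx3l, whose products form a ubiquitin ligase complex, lie beside Parp14 on chromosome 16, where Parp14 spans 35832874 to 35871544, Dtx3l 35926511 to 35939151 and Parp9 35938470 to 35972605. Dtx3l had 104, 98.4 and 120 CPM in EKO-BMDM-exo, 124, 107 and 110 CPM in WT-BMDM-exo and 117, 127 and 123 CPM in PBS. Parp9 had 51.3, 49.7 and 60.6 CPM in EKO-BMDM-exo, 67.0, 59.9 and 58.5 CPM in WT-BMDM-exo and 52.6, 66.8 and 66.0 CPM in PBS. In both the EKO-BMDM-exo and PBS libraries overlapped, and neither passed, at -0.19 ± 0.062 (adjusted p = 0.0898) for Dtx3l and -0.20 ± 0.084 (adjusted p = 0.256) for Parp9. Sp100, a nuclear body protein, stood at 88.7 to 112 CPM in EKO-BMDM-exo, 89.8 to 120 CPM in WT-BMDM-exo and 123 to 129 CPM in PBS. Its exosome libraries all lay below PBS, but neither change passed (adjusted p = 0.0995 for EKO-BMDM-exo and 0.277 for WT-BMDM-exo). Parp12 had a value of -0.19 ± 0.070 (adjusted p = 0.153), Ifi35 one of -0.08 ± 0.11 (adjusted p = 0.874) and Phf11b one of 0.14 ± 0.30 (adjusted p = 0.934). Sp100 and Phf11b have near copies in the mouse genome, which makes their counts uncertain.

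In the ISG15 and ubiquitin group 1 of 7 genes fell in EKO-BMDM-exo against PBS, beside 2.41% of all genes tested. The gene that fell was Trim30a, a tripartite-motif protein that dampens Toll-like receptor signalling in mice. It measured 80.6, 81.6 and 93.2 CPM in EKO-BMDM-exo, 97.3, 94.8 and 97.2 CPM in WT-BMDM-exo and 101, 109 and 102 CPM in PBS. The groups did not overlap and stood in the order EKO-BMDM-exo, WT-BMDM-exo, PBS from low to high, with -0.29 ± 0.058 for EKO-BMDM-exo against PBS (adjusted p = 0.00105) and -0.18 ± 0.059 between the exosomes (adjusted p = 0.222). Isg15, the ubiquitin-like modifier itself, had 4.53, 3.14 and 4.49 CPM in EKO-BMDM-exo, 4.27, 5.40 and 5.52 CPM in WT-BMDM-exo and 7.39, 4.19 and 5.38 CPM in PBS. Its groups overlapped, and the value of -0.47 ± 0.24 against PBS did not pass (adjusted p = 0.419). Usp18, which removes ISG15 and restrains the type I receptor, had 8.90, 5.59 and 9.41 CPM in EKO-BMDM-exo, 9.32, 6.45 and 6.99 CPM in WT-BMDM-exo and 9.82, 10.5 and 8.47 CPM in PBS, with an adjusted p of 0.653. Trim21, an intracellular antibody receptor, had 28.6, 26.3 and 30.6 CPM in EKO-BMDM-exo, 28.5, 38.0 and 30.7 CPM in WT-BMDM-exo and 37.0, 35.4 and 32.2 CPM in PBS, and its -0.29 ± 0.10 did not pass (adjusted p = 0.116). Trim25, the ligase that activates RIG-I, had the smallest within-group SD of the 56, at 299, 302 and 314 CPM in EKO-BMDM-exo, 312, 325 and 304 CPM in WT-BMDM-exo and 299, 312 and 311 CPM in PBS. Its value against PBS was -0.01, with a 95% interval from -0.09 to 0.06. Herc6, the ISG15 ligase of mice, had -0.08 ± 0.13 (adjusted p = 0.893).

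The interferon-induced GTPases were mostly low. Of 8 tested, Gbp7, Irgm1 and Mx1 fell in EKO-BMDM-exo against PBS, beside 2.41% of all genes tested. Gbp7, a guanylate-binding protein, had 1.82, 2.06 and 2.14 CPM in EKO-BMDM-exo, 3.08, 4.19 and 2.97 CPM in WT-BMDM-exo and 3.68, 5.65 and 3.20 CPM in PBS. EKO-BMDM-exo lay below both groups, and its -1.06 ± 0.30 was the largest change of the 28 (adjusted p = 0.0322). It was lost with limma-voom, without any 1 library of EKO-BMDM-exo and without PBS 1 or 2 (up to 0.312, without PBS 2), and the guanylate-binding genes on chromosome 3 resemble each other. Irgm1, which regulates the immunity-related GTPases and autophagy, had 49.6, 51.1 and 61.4 CPM in EKO-BMDM-exo, 63.5, 67.8 and 62.5 CPM in WT-BMDM-exo and 66.6, 66.0 and 61.7 CPM in PBS. EKO-BMDM-exo 3 nearly met PBS 3, and the change was -0.26 ± 0.074 (adjusted p = 0.0338), lost without EKO-BMDM-exo 1 or 2 or PBS 1 or 2 (up to 0.261, without EKO-BMDM-exo 1). Mx1, a dynamin-like antiviral protein that is defective in many laboratory strains, had 5.20, 4.93 and 7.41 CPM in EKO-BMDM-exo, 7.07, 6.84 and 7.74 CPM in WT-BMDM-exo and 7.66, 11.5 and 8.67 CPM in PBS. It lay below PBS, at -0.66 ± 0.20 (adjusted p = 0.0462), and passed in 8 of 15 alternatives. The call was lost without EKO-BMDM-exo 1 or 2, any 1 library of WT-BMDM-exo or PBS 2 or 3 (up to 0.359, without PBS 2). Ifi47, at -0.36 ± 0.16 (adjusted p = 0.292), Gbp3, at -0.30 ± 0.18 (adjusted p = 0.549), Gbp2, Igtp and Ifi44 did not pass.

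**Figure D3:**
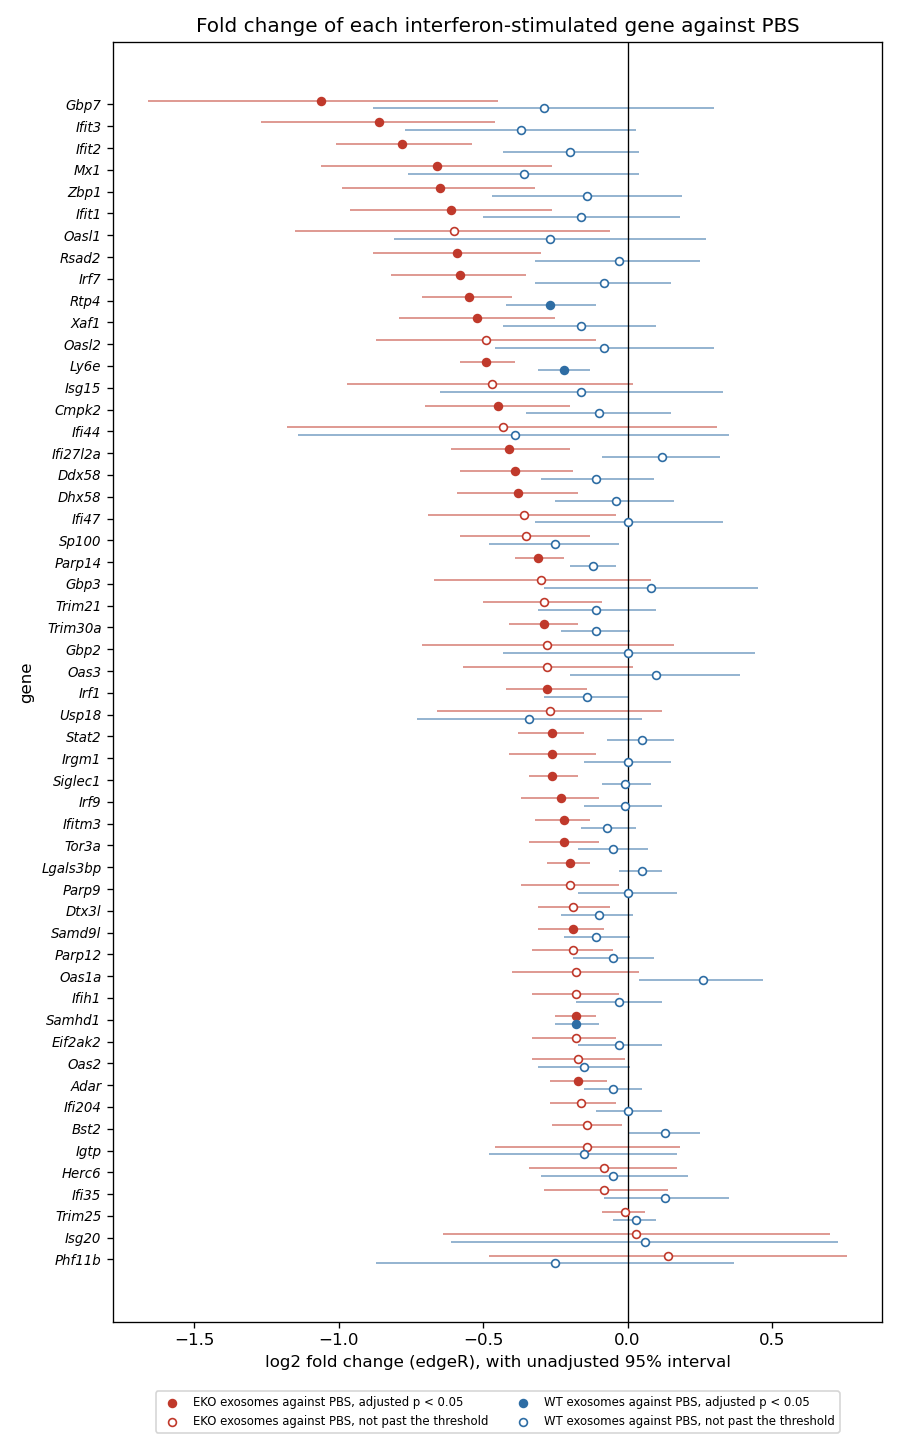
Log2 fold change against PBS (edgeR) of 54 interferon-stimulated genes for EKO-BMDM-exo (red) and WT-BMDM-exo (blue), with unadjusted 95% intervals and filled points where the adjusted p was under 0.05. Cxcl10 and Ifit3b, which had the widest intervals of the 56 genes, are left out. Both comparisons share the PBS libraries, and 28 red and 3 blue points are filled.

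The order of the group means was the same in most genes. Mean log2 CPM was lowest in EKO-BMDM-exo, then WT-BMDM-exo, then PBS in 38 of the 56 genes (67.9%), against 17.1% of all genes tested. EKO-BMDM-exo was the lowest group in 50 genes (89.3%), against 31.1% of all genes. The 3 EKO-BMDM-exo libraries lay below all PBS libraries in 30 genes, where 9.24% of all genes did so, and below all WT-BMDM-exo libraries in 25 genes, where 7.01% did. In none of the 56 did they lie above all PBS libraries (9.06% of all genes) or above all WT-BMDM-exo libraries (7.04% of all genes). The WT-BMDM-exo libraries lay below all PBS libraries in 8 genes, beside 8.87% of all genes, and above them in 1, Oas1a, beside 8.59%. All genes were measured in the same libraries and moved together within groups, so these counts are not of separate observations. The place of WT-BMDM-exo below PBS depended on PBS 2. Without that library the median log2 fold change of WT-BMDM-exo against PBS was -0.020, with 34 genes negative in place of 43.

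Levels differed widely between the genes. Per kilobase of exon, Ifitm3, Lgals3bp, Ly6e, Bst2 and Ifi27l2a had the highest levels in PBS, in that order. In EKO-BMDM-exo Ifitm3 stood at 255 ± 10.5 CPM per kb (SD, n = 3), Lgals3bp at 221 ± 14.3, Ly6e at 131 ± 12.4, Bst2 at 91.4 ± 4.70 and Ifi27l2a at 64.8 ± 4.74. In PBS Ifitm3 stood at 298 ± 12.1 CPM per kb (SD, n = 3), Lgals3bp at 254 ± 7.28, Ly6e at 183 ± 4.39, Bst2 at 101 ± 8.55 and Ifi27l2a at 85.8 ± 16.6. Bst2 and Ifi27l2a overlapped in PBS, where Ifi27l2a ranged from 68.5 to 102 CPM per kb and Bst2 from 93.9 to 110, and the ranges of the other 3 did not touch. At the low end, Gbp7, Ifit3b, Cxcl10 and Ifi44 had 0.744 ± 0.232, 0.676 ± 0.0914, 0.498 ± 0.166 and 0.445 ± 0.0800 CPM per kb in PBS, and these neighbours overlapped. The genes that fell included Ifitm3 at the high end and Gbp7 at the low end.

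Libraries within a group differed in a way that ran across the genes. EKO-BMDM-exo 3 was the highest library of its group in 47 of 56 genes (83.9%, against 32.7% of all genes tested) and EKO-BMDM-exo 2 the lowest in 39 (69.6%, against 35.1%). PBS 2 was the highest of its group in 37 genes (66.1%, against 32.8%) and PBS 1 the lowest in 35 (62.5%, against 33.2%). In WT-BMDM-exo the highest library was replicate 1, 2 or 3 in 17, 17 and 22 genes. The mean deviation of the 56 genes from their means over all libraries was -0.21, -0.35 and -0.0064 on the log2 scale in EKO-BMDM-exo 1, 2 and 3, 0.041, 0.047 and -0.013 in the WT-BMDM-exo libraries, and 0.084, 0.26 and 0.14 in the PBS libraries. EKO-BMDM-exo 3 thus lay between its companions and the PBS libraries, close to the WT-BMDM-exo level. It was below all PBS libraries in 32 of the 56 genes, beside 25.0% of all genes tested. EKO-BMDM-exo 1 was so in 46 genes, beside 26.5%, and EKO-BMDM-exo 2 in 53, beside 27.4%. Single WT-BMDM-exo libraries were so in 21, 23 and 21 genes, beside 26.1%, 28.6% and 28.7% of all genes.

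**Figure D4:**
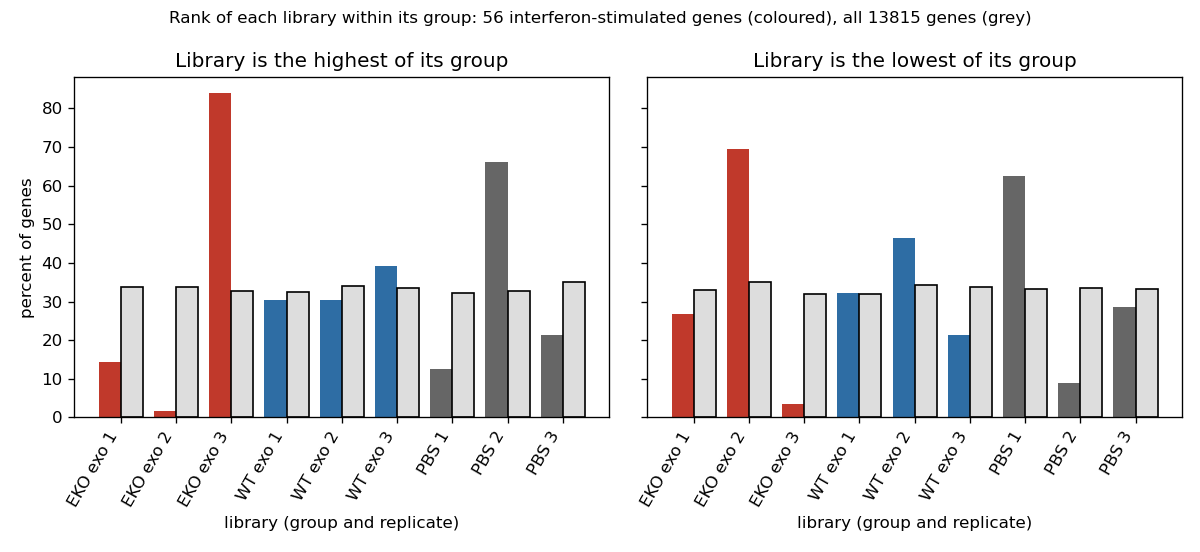
Percentage of genes in which each library was the highest (left) or lowest (right) of its group of 3, for the 56 interferon-stimulated genes (coloured bars) and all 13815 genes tested (light grey bars). EKO-BMDM-exo 3 was highest in 83.9% and PBS 2 in 66.1% of the interferon-stimulated genes, where all genes lay between 32.1% and 35.1%.

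The spread of single genes was close to that of other genes. The median within-group SD of log2 CPM was 0.156 over the 56 genes and 0.151 over all genes tested, with a range from 0.0404 (Trim25) to 1.06 (Ifit3b). Samhd1, Ifi204, Siglec1 and Adar were among the steadiest, with SDs of 0.0444, 0.0473, 0.0625 and 0.0629, and the low genes Cxcl10, Phf11b and Ifi44 among the most variable, with 0.849, 0.456 and 0.432.

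The number of genes called depended on which libraries entered the fit. Against the 28 lower in EKO-BMDM-exo than in PBS, 14 passed without EKO-BMDM-exo 1, 11 without EKO-BMDM-exo 2, 12 without PBS 2 and 20 without PBS 3, but 30 without EKO-BMDM-exo 3. The remaining single omissions left 24 to 26. The median log2 fold change was -0.22 without EKO-BMDM-exo 2 and -0.37 without EKO-BMDM-exo 3, and at least 52 of 56 genes were negative each time. Between the exosomes, 18 genes in place of 10 passed without EKO-BMDM-exo 3, 4 without EKO-BMDM-exo 2, 5 without WT-BMDM-exo 3, and 6 each without EKO-BMDM-exo 1, WT-BMDM-exo 1 or WT-BMDM-exo 2. For WT-BMDM-exo against PBS, Samhd1 was the 1 gene left without PBS 2 or without PBS 3, 2 genes passed without WT-BMDM-exo 1 or 2, 3 without WT-BMDM-exo 3 (2 of them shared with the 3), and without PBS 2 the median moved to -0.020 and 34 genes were negative in place of 43. In all 15 alternatives, 10 of the 28 calls held, those of Ifit2, Ifitm3, Irf7, Lgals3bp, Ly6e, Parp14, Rtp4, Samhd1, Siglec1 and Trim30a. Between the exosomes the calls of Lgals3bp, Siglec1 and Stat2 held in all 15.

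**Figure D5:**
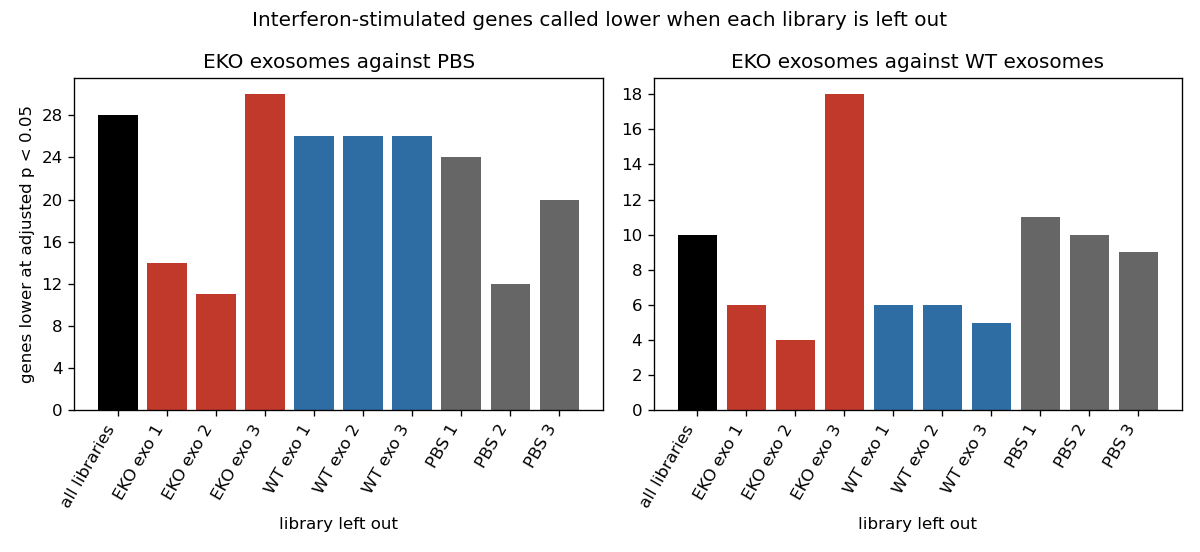
Number of interferon-stimulated genes lower at an adjusted p under 0.05 (edgeR) with all 9 libraries (black) and with each library left out, for EKO-BMDM-exo against PBS (left) and EKO-BMDM-exo against WT-BMDM-exo (right). The count was lowest without EKO-BMDM-exo 2, at 11 and 4, and highest without EKO-BMDM-exo 3, at 30 and 18.

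The interferons themselves were not seen. All 21 interferon genes examined, among them Ifnb1, Ifna4 and Ifng, were listed at 0 in all 9 libraries. The mitochondrial gene mt-Co2 was also listed at 0 throughout, so a listed 0 is not a measure of absence. Of 10 receptor and JAK-STAT genes tested, Ifngr1, the ligand-binding chain of the type II receptor, fell in both exosome groups. None of the 10 rose (edgeR, adjusted p under 0.05). Of all genes tested, 2.41% were lower in EKO-BMDM-exo and 2.18% in WT-BMDM-exo, and 1 call of 10 is too few to describe the list. DESeq2 called 3 of the 10 lower in EKO-BMDM-exo and limma-voom 2, and each called 1 in WT-BMDM-exo. At an unadjusted p under 0.05 (edgeR), 5 were lower in EKO-BMDM-exo and 3 in WT-BMDM-exo, and 0 were higher in either. Ifngr1 measured 182, 173 and 184 CPM in EKO-BMDM-exo, 190, 190 and 189 CPM in WT-BMDM-exo and 215, 219 and 221 CPM in PBS. Both exosome groups lay below PBS without overlap, at -0.28 ± 0.041 for EKO-BMDM-exo (adjusted p = 8.05e-06) and -0.20 ± 0.041 for WT-BMDM-exo (adjusted p = 0.00124). Ifnar1, Ifnar2 and Ifngr2 had values of -0.10 ± 0.043, -0.13 ± 0.051 and -0.12 ± 0.041 in EKO-BMDM-exo against PBS, with adjusted p of 0.269, 0.197 and 0.119.

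Upstream, 4 of 18 sensor and adaptor genes fell against PBS in EKO-BMDM-exo, and the same 4 fell in WT-BMDM-exo. Of all genes tested, 2.41% and 2.18% were lower in these comparisons. None of the 18 was higher in either (edgeR, adjusted p under 0.05). At an unadjusted p under 0.05 (edgeR), 1 was higher and 5 lower in EKO-BMDM-exo, and 2 were higher and 6 lower in WT-BMDM-exo. The 4 that fell at the adjusted threshold were Unc93b1, the carrier of the endosomal Toll-like receptors, the receptor genes Tlr8 and Tlr9, and the kinase gene Ikbke. Tlr9 measured 77.8, 71.9 and 75.8 CPM in EKO-BMDM-exo, 81.5, 74.2 and 75.8 CPM in WT-BMDM-exo and 93.9, 96.0 and 98.0 CPM in PBS. It changed by -0.35 ± 0.059 in EKO-BMDM-exo (adjusted p = 8.57e-05) and -0.31 ± 0.059 in WT-BMDM-exo (adjusted p = 5.13e-04), and by -0.04 ± 0.059 between the exosomes. Ikbke changed by -0.38 ± 0.052 in EKO-BMDM-exo (adjusted p = 3.01e-06) and -0.23 ± 0.051 in WT-BMDM-exo (adjusted p = 0.00428). In WT-BMDM-exo against PBS the Ikbke call was lost without PBS 2 (adjusted p = 0.0539), that of Tlr8 without WT-BMDM-exo 3 (adjusted p = 0.0793) and that of Unc93b1 without WT-BMDM-exo 1 or PBS 3 (up to 0.0972, without WT-BMDM-exo 1). None of the 18 passed between the exosomes with edgeR, and 1 did with DESeq2 and 1 with limma-voom (2 lower at an unadjusted p under 0.05 by each). Of 17 IRF and feedback genes, the phosphatase gene Ptpn6 fell in both groups. Its change was -0.19 ± 0.035 in EKO-BMDM-exo (adjusted p = 3.50e-04) and -0.18 ± 0.035 in WT-BMDM-exo (adjusted p = 8.67e-04). Irf2 fell in WT-BMDM-exo, at -0.19 ± 0.052 (adjusted p = 0.0287). None of the 17 was higher in either comparison, and 1 or 2 calls of 17 are too few to describe the list. At an unadjusted p under 0.05 (edgeR), 2 were higher and 5 lower in EKO-BMDM-exo, and 1 was higher and 7 lower in WT-BMDM-exo. The Irf2 call was lost without WT-BMDM-exo 1 or 2 or PBS 1 or 2 (up to 0.177, without PBS 1).

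Of 93 other interferon-induced genes tested, 16 fell in EKO-BMDM-exo against PBS, 4 in WT-BMDM-exo against PBS and 4 in EKO-BMDM-exo against WT-BMDM-exo, beside 2.41%, 2.18% and 0.413% of all genes tested, with medians of -0.23, -0.049 and -0.12. DESeq2 called 22, 4 and 9 of them lower and limma-voom 17, 4 and 5. None was higher in any of these comparisons by edgeR, DESeq2 or limma-voom, and 0 were higher at an unadjusted p under 0.05. Fcgr1, the high-affinity IgG receptor, had the lowest p of them. It measured 91.5, 89.7 and 96.0 CPM in EKO-BMDM-exo, 119, 119 and 127 CPM in WT-BMDM-exo and 130, 143 and 141 CPM in PBS, with no overlap between groups. Its change was -0.58 ± 0.052 for EKO-BMDM-exo against PBS (adjusted p = 6.61e-10), -0.18 ± 0.051 for WT-BMDM-exo against PBS (adjusted p = 0.0289, and lost without WT-BMDM-exo 1 or 2 or PBS 2 or 3, up to 0.165 without PBS 2) and -0.39 ± 0.052 between the exosomes (adjusted p = 9.58e-06). Lgals9, the galectin-9 gene, and Helz2, a helicase gene, were lower in EKO-BMDM-exo than in WT-BMDM-exo, with -0.32 ± 0.059 (adjusted p = 0.00175) and -0.28 ± 0.055 (adjusted p = 0.00405), and Slfn9, a schlafen gene, with -0.42 (adjusted p = 0.0280). The Lgals9 call was lost without WT-BMDM-exo 3 (adjusted p = 0.0613). Helz2 lost its call without EKO-BMDM-exo 1 or 2 or WT-BMDM-exo 3 (up to 0.103, without EKO-BMDM-exo 2), and Slfn9 without WT-BMDM-exo 1 or 3 or any 1 library of EKO-BMDM-exo (up to 0.159, without EKO-BMDM-exo 2).

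Some markers of cell types also differed between the groups, though the summed macrophage markers overlapped between the exosome groups. Of the 8 macrophage markers, Adgre1, Csf1r, Itgam, Fcgr1, Lyz2 and C1qa fell against PBS in both exosome groups. The shares of all genes tested that were lower were 2.41% in EKO-BMDM-exo and 2.18% in WT-BMDM-exo. Fcgr1, itself one of the other interferon-induced genes above, and C1qa were lower in EKO-BMDM-exo than in WT-BMDM-exo, beside 0.413%. Cd68 moved the other way and rose in WT-BMDM-exo against PBS, with 2517, 2597 and 2702 CPM in EKO-BMDM-exo, 2615, 2614 and 2769 CPM in WT-BMDM-exo and 2507, 2454 and 2532 CPM in PBS. The 7 plasmacytoid dendritic cell markers summed to 237 to 257 CPM in EKO-BMDM-exo, 249 to 264 CPM in WT-BMDM-exo and 276 to 279 CPM in PBS. Of these, Klk1 and Ly6d were at 0 in all libraries, Siglech and Ccr9 reached at most 0.348 CPM, and nearly all of the sum was Tcf4 and Bst2, which is itself one of the 57 genes. The 9 neutrophil markers summed to 3.78 to 18.1 CPM in EKO-BMDM-exo, 10.4 to 30.7 CPM in WT-BMDM-exo and 21.0 to 29.9 CPM in PBS, with 5 of 9 tested. Fibroblast and stromal markers summed to 5.68 to 24.4 CPM in EKO-BMDM-exo, 16.6 to 29.9 CPM in WT-BMDM-exo and 8.74 to 62.5 CPM in PBS. The part of these markers in the changes of the interferon-stimulated genes was not tested.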

How the data were processed

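The authors deposited raw counts per Ensembl gene for 9 libraries, with a column per library. Total RNA was extracted with an RNeasy kit and libraries were prepared, per the labels' protocols, by the Universal Plus mRNA-Seq method. The submitters' processing notes name STAR 2.7.5c and GRCm38. No source used here gives the annotation, strand setting or treatment of multi-mapping reads, so reads of overlapping or near-identical genes cannot be assigned with certainty. Symbols, coordinates and exon lengths came from GENCODE M21.

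From these counts, genes were filtered with filterByExpr (minimum count 10) and scaled with TMM factors. All 9 libraries entered 1 robust edgeR 4.0.16 quasi-likelihood model of group (R 4.3.3), with 2-sided tests, Benjamini-Hochberg adjustment over 13815 genes and a threshold of 0.05. "Adjusted p" means this value, errors of log2 fold changes are SE, and intervals of 95% are unadjusted. DESeq2 1.42.0, limma-voom (limma 3.58.1), other scaling, no filter, the 6 libraries compared, a replicate block and each library left out were alternatives. The fits were tested on simulated counts.

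The genes and lists were chosen with earlier results of these data known. Named in full were the up to 5 genes of a role group with the lowest p in EKO-BMDM-exo against PBS and the most abundant one; any gene that passed a comparison could be named. Libraries within a group differed by more than counting noise, so none was taken for a copy of another. All 9 were kept, and no rule for outlying libraries was applied.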

Additional observations from a re-analysis of the deposited data

Results flagged for a closer look

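For 10 interferon-stimulated genes, levels differed between EKO-BMDM-exo and WT-BMDM-exo (edgeR, adjusted p under 0.05, n = 3 libraries each). Only the calls of Lgals3bp, Siglec1 and Stat2 held in all 15 alternatives, and the adjusted p of Oas1a reached 0.422. Against PBS, Oas1a and Bst2 passed in neither exosome group. Donor genotype cannot be told apart from exosome preparation, because no source used here says whether preparations were separate. The differences in log2 response, EKO-BMDM-exo minus WT-BMDM-exo, were -0.25 for Lgals3bp, -0.25 for Siglec1, -0.31 for Stat2, -0.27 for Ly6e and -0.52 for Ifi27l2a. They were -0.58 for Ifit2, -0.19 for Parp14, -0.26 for Bst2, -0.50 for Irf7 and -0.43 for Oas1a. In each of these genes all 3 EKO-BMDM-exo libraries lay below all 3 WT-BMDM-exo libraries, as in 7.01% of all genes tested. The genes were picked by this same contrast, so the separation adds no support. No cause of the differences was tested.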

How the results depend on the processing

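No call on an interferon-stimulated gene changed its direction under the alternatives run. Values that had not passed did change sign in at least 1 alternative, in 6 of the 56 genes for EKO-BMDM-exo against PBS, 22 for WT-BMDM-exo against PBS and 8 for EKO-BMDM-exo against WT-BMDM-exo. Trim25 was among the first of these, at 0.00305 without EKO-BMDM-exo 1 and 0.00215 without PBS 2. Scaling with DESeq2 size factors gave the same 28, 3 and 10 calls. With the replicate number as a replicate block, 30 interferon-stimulated genes were lower in EKO-BMDM-exo against PBS, 5 in WT-BMDM-exo against PBS and 14 in EKO-BMDM-exo against WT-BMDM-exo, and 64 of all genes were higher in the last comparison. Same-numbered libraries did not deviate together over all genes (correlations between -0.035 and 0.0402). With 3 libraries a group this cannot exclude that the numbers pair them. DESeq2 called 97 of all genes lower and 60 higher between the exosomes, in place of 57 and 39. Without the filter on low counts the median SD over all genes was 0.363, because low genes entered. Leaving out 1 library gave 11 to 30, 1 to 4 and 4 to 18 interferon-stimulated genes in the 3 comparisons. Over all genes it gave 230 to 333 lower and 171 to 262 higher in EKO-BMDM-exo against PBS, 211 to 279 lower and 197 to 267 higher in WT-BMDM-exo against PBS, and 31 to 67 lower and 21 to 48 higher between the exosomes. The median SD moved between 0.132 and 0.17 for the interferon-stimulated genes. Genes with exon overlap under 10% gave 25 calls in EKO-BMDM-exo against PBS. With 3 libraries a group and effects mostly under 1 on the log2 scale, values that missed the threshold do not show that levels were alike.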
